A study of Mus musculus with 4 samples.

Results

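Expression of 6 Sox transcription factor genes of neural progenitors (Sox1, Sox2, Sox3, Sox8, Sox9 and Sox21) was examined in sorted cells of the mouse embryonic cortex. They were taken by gene symbol, and all 6 were found among the 23240 rows of the gene count table, each on its own row. The cells came from cortices of embryonic day 15.5 embryos that carried both a Nestin-GFP and a DCX-mRFP transgene, from a cross of heterozygous Nestin-GFP with homozygous DCX-mRFP mice. Neurons were the cells sorted for both colours, and neural progenitor cells (NPCs) were the cells sorted for green only, with 2 duplicate RNA-seq libraries of total RNA per group. Both reporters were thus present in both groups, and each gate defines its group by fluorescence and not by a cell lineage. The sources used here do not give the strain, the sequences that drive the transgenes or the number of embryos pooled. The labels name the libraries duplicates and mention no separate litters, and the p-values therefore cover no more than the difference between such duplicates, which may be technical.

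Sox proteins bind DNA through an HMG box, which sits in the minor groove of short ACAAT-like and ACAAAG-like sequences and bends the helix. The SoxB1 proteins Sox1, Sox2 and Sox3 are activators that keep neural progenitors undifferentiated, and the SoxB2 protein Sox21 is a repressor that counteracts them in the chick neural tube. The SoxE proteins Sox8, Sox9 and Sox10 act in glial lineages, with Sox9 needed for neural stem cell formation and for the onset of gliogenesis. Neurons then depend on SoxC proteins (Sox4, Sox11), which activate neuronal genes.

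All 6 genes were lower in neurons than in NPCs, and neurons held between 13.1% (Sox8) and 29.1% (Sox1) of the NPC level. All 6 passed the filter on low counts and an adjusted p of 0.05 as lower in neurons, a call made for 36.9% of the 15292 genes tested (72.6% were called in either direction). Both neuron libraries lay below both NPC libraries for all 6, which held for 44.0% of genes tested (86.0% had groups that did not overlap in either direction). The median log2 change was -2.75 over the 6 genes and -0.02 over all genes tested. Levels are CPM, shown for every library. CPM is a gene's count relative to its library total, after that total is multiplied by the library's TMM scaling factor. These factors were 0.928 and 0.933 in neurons and 1.08 and 1.07 in NPCs, so libraries were not simply brought to equal totals. A log2 change compares neurons with NPCs and carries its standard error. Each adjusted p comes from the quasi-likelihood test of edgeR, adjusted by Benjamini-Hochberg over all genes tested. In bulk samples of this kind, fewer cells of a type and less RNA per cell cannot be told apart.

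The stretch of 250 bases before the RefSeq start (GRCm38.p6) is shown for Sox2, Sox21 and Sox8, 1 gene of each family group among the 6. The windows are chr3:34649745-34649994 on the plus strand for Sox2, chr14:118237031-118237280 on the minus strand for Sox21 and chr17:25570687-25570936 on the minus strand for Sox8. They are written 5′ to 3′, and capitals mark the Sox core letters ACAAT and ACAAAG and the CCAAT box, on either strand.
Sox2: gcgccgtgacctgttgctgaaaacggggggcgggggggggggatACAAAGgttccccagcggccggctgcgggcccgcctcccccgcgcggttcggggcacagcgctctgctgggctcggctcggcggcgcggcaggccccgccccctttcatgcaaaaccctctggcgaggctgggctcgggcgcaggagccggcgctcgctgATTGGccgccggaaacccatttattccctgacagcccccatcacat
Sox21: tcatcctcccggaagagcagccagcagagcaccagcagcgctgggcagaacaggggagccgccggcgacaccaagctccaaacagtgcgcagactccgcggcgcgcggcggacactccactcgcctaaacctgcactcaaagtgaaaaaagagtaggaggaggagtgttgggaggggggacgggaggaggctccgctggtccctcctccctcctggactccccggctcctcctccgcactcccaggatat
Sox8: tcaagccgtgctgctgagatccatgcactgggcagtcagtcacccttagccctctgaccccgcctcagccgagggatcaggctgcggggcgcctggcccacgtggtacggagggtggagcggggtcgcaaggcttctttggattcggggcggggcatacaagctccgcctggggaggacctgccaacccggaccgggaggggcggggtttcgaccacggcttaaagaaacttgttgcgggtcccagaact
Of the 6 genes, 4 had a window in the table, and these also included Sox1. The other members, Sox3 and Sox9, had none. The letters ACAAAG occurred once in the Sox2 window, starting 206 bases before the start, and in none of the other 3. They were present in 16.5% of all 32851 windows of this length. The letters ACAAT were in none of the 4 windows and in 27.7% of all windows. The letters CCAAT were found once in the Sox2 window, 46 bases before the start on the reverse strand, and once in the Sox1 window, 237 bases before it, against 33.8% of all windows. The Sox8 window held 1 E box (letters CANNTG, the core bound by basic helix-loop-helix factors), which 66.2% of all windows also held, and the other windows held none. None of the 4 windows held the TATA box letters TATAAA (12.4% of windows) or the octamer ATGCAAAT bound by POU factors (1.60% of windows). The windows shared a high G and C content, at 65.2% for Sox21, 65.6% for Sox8, 71.2% for Sox1 and 72.0% for Sox2, against a median of 52.4% over all windows. These matches describe letters only, and no binding was measured.

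All 3 SoxB1 genes, the activators of the progenitor state, fell. Sox2, which is used as a marker of radial glia, the stem cells of the cortex, had 39.5 and 40.5 CPM in neurons, against 164 CPM in each NPC library. The duplicates were close and the groups lay far apart. The log2 change of Sox2 was -2.03 ± 0.06 (adjusted p = 1.1e-14). Sox1, a marker of neuroectoderm, had 13.9 and 16.3 CPM in neurons, against 54.1 and 49.8 CPM in NPCs. Its log2 change of -1.78 ± 0.08 (adjusted p = 5.1e-12) was the smallest of the 6, and Sox1 kept the highest share of its NPC level. Sox3, an X-linked gene needed for the hypothalamus and pituitary, had 3.60 and 4.71 CPM in neurons, against 29.8 and 32.8 CPM in NPCs. Its log2 change was -2.91 ± 0.11 (adjusted p = 5.8e-13), so that neurons held 13.3% of the NPC level, against 24.4% for Sox2. The neuron duplicates of Sox3 differed by 0.39 on the log2 scale, at 176 and 243 counts, and this was the widest gap between duplicates among the 6 genes in either group. Counting error alone gives an SD of 7.54% for the lower of those counts.

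Sox21, the SoxB2 repressor, had 9.91 and 12.2 CPM in neurons, against 80.1 and 81.0 CPM in NPCs. Its log2 change was -2.86 ± 0.08 (adjusted p = 1.9e-14). The change of this repressor lay within the standard errors of that of Sox3 and was more negative than those of the activators Sox2 and Sox1.

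Both SoxE genes fell. Sox9 had 20.4 and 19.2 CPM in neurons, against 123 and 124 CPM in NPCs, a log2 change of -2.64 ± 0.06 (adjusted p = 2.9e-15). Sox8, which shares functions with Sox9 and Sox10 in glia and neural crest, had 4.32 and 4.61 CPM in neurons, against 33.3 and 35.1 CPM in NPCs. Its log2 change was -2.94 ± 0.09 (adjusted p = 5.0e-14), the lowest value of the 6. The changes of Sox3 and Sox21 lay within this standard error, so the order among these genes was not resolved. Of all genes tested, 11.1% had a change at least as low as that of Sox1, and 4.02% had one lower than that of Sox8.

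**Figure D1:**
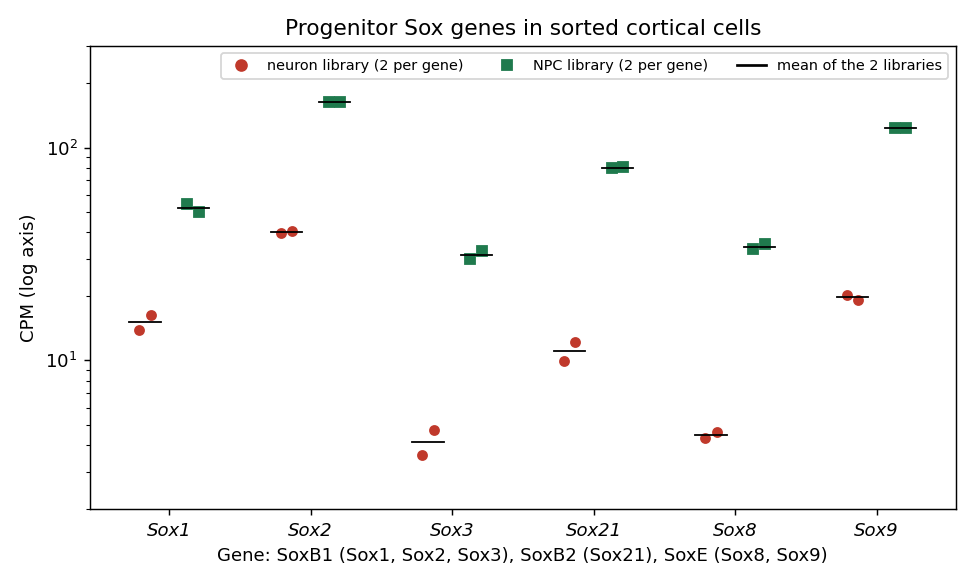
Expression of the 6 progenitor Sox genes in CPM on a log axis, with 1 point per library (2 neuron libraries on the left and 2 NPC libraries on the right for each gene) and a line at the mean. Neuron points lie below NPC points for all 6 genes, from 3.60 to 40.5 CPM in neurons and from 29.8 to 164 CPM in NPCs.

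Levels of different genes were compared per kilobase of exon, with the exon length of each gene from GENCODE M21, which may not be the annotation used for counting. Sox2 was the most abundant of the 6 in both groups, with 19.2 and 19.7 CPM per kilobase in neurons, against 79.7 and 79.9 CPM per kilobase in NPCs. Sox9 came next in both, with 4.94 and 4.65 CPM per kilobase in neurons, against 29.8 and 30.0 CPM per kilobase in NPCs. In NPCs, Sox21 (21.1 and 21.3 CPM per kilobase) and Sox3 (14.4 and 15.9 CPM per kilobase) followed. The libraries of Sox1 (11.2 and 10.3 CPM per kilobase) and Sox8 (10.7 and 11.2 CPM per kilobase) overlapped in NPCs, so their order was not resolved. In neurons, Sox1 (2.88 and 3.37 CPM per kilobase) overlapped Sox21 (2.61 and 3.21 CPM per kilobase), and Sox3 (1.75 and 2.28 CPM per kilobase) and Sox8 (1.39 and 1.48 CPM per kilobase) came last. RefSeq gives other lengths for Sox1 and Sox2, 4037 and 2467 bases in place of 4832 and 2057. With these, Sox2 averaged 16.2 CPM per kilobase in neurons and 66.5 CPM per kilobase in NPCs, still the highest of the 6. Sox1 averaged 3.74 CPM per kilobase in neurons and 12.9 CPM per kilobase in NPCs. These Sox1 means lay above those of Sox21 in neurons (2.91) and of Sox8 in NPCs (11, GENCODE length). The place of Sox1 beside these genes thus depends on the length used.

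Counts were also set against the Sox2 count of the same library, a ratio that does not depend on the scaling between libraries. Relative to Sox2, the genes Sox3, Sox8, Sox9 and Sox21 were lower in neurons and Sox1 was higher. The Sox3 count was 0.0911 and 0.116 of the Sox2 count in neurons, against 0.182 and 0.200 in NPCs. For Sox8 the ratio was 0.109 and 0.114 in neurons, against 0.203 and 0.213 in NPCs. Sox21 stood at 0.251 and 0.300 of Sox2 in neurons, against 0.489 and 0.493 in NPCs. The fall of Sox9 relative to Sox2 was smaller, with ratios of 0.516 and 0.474 in neurons, against 0.752 and 0.755 in NPCs. Sox1 went the other way, with ratios of 0.352 and 0.402 in neurons, against 0.330 and 0.303 in NPCs. For all 5 genes the groups did not overlap, which was also so for 95.6% of all genes set against Sox2. A higher ratio in neurons without overlap was found for 88.5% of genes, as for Sox1, and a lower one for 7.11%, as for Sox3, Sox8, Sox9 and Sox21. Of the 15 pairs of members, 11 had groups that did not overlap. Between Sox3, Sox8 and Sox21 the ratios overlapped between groups in each of the 3 pairings. For Sox21 to Sox3 they were 2.75 and 2.59 in neurons, against 2.69 and 2.47 in NPCs. The ratio of Sox9 to Sox3 overlapped too, at 5.66 and 4.08 in neurons, against 4.14 and 3.78 in NPCs. The share over all genes was taken for ratios to Sox2 only. Ratios of 2 against 2 libraries cannot give an exact two-sided permutation p below 0.333, so they are values with no test.

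**Figure D2:**
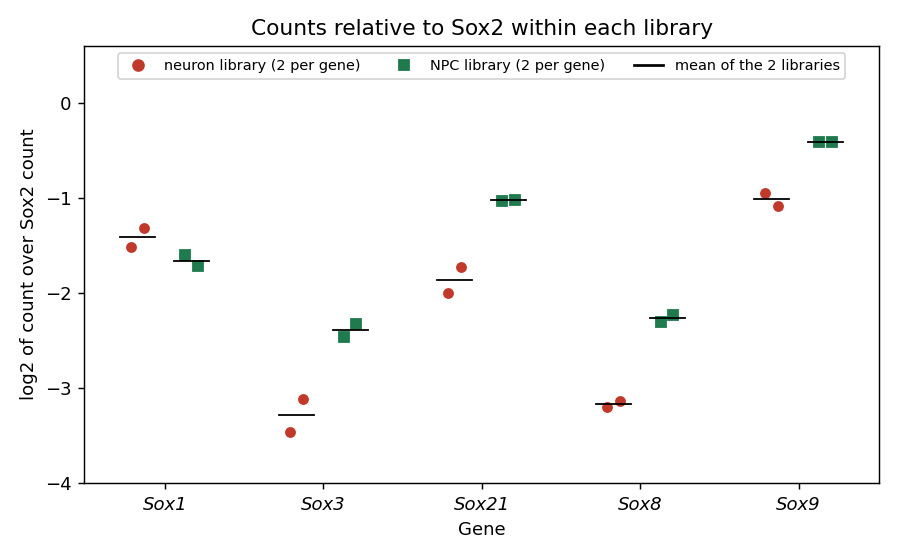
Count of each gene over the Sox2 count of the same library on a log2 scale, with 1 point per library (neurons left, NPCs right) and a line at the mean. Sox1 lies higher in neurons, with a difference of 0.25 between group means, and the other 4 genes lie lower in neurons, with differences of -0.61 for Sox9 and -0.90 to -0.84 for Sox21, Sox3 and Sox8.

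Sox2 and Sox1 each lie within the span of a longer noncoding gene on the same strand in GENCODE M21, so strand alone could not tell their reads apart. The host of Sox2 is Sox2ot and the host of Sox1 is Sox1ot, listed in the table under the older name Gm5607. Sox2ot had 17.2 and 16.5 CPM in neurons, against 37.4 and 35.5 CPM in NPCs, a log2 change of -1.11 ± 0.07 (adjusted p = 7.1e-10). Gm5607 had 8.89 and 8.23 CPM in neurons, against 19.1 and 20.7 CPM in NPCs, a log2 change of -1.22 ± 0.10 (adjusted p = 5.3e-09). The noncoding hosts thus fell too and kept 46.4% (Sox2ot) and 43.0% (Gm5607) of the NPC level, against 24.4% for Sox2 and 29.1% for Sox1. The noncoding gene 2810468N07Rik (RefSeq symbol Cerox1) overlaps Sox8 on the opposite strand in GENCODE. Whether counting used strand is not known from the sources used here. 2810468N07Rik was low, at 0.922 and 1.08 CPM in neurons and 7.29 and 6.18 CPM in NPCs. Its log2 change was -2.74 ± 0.18 (adjusted p = 5.8e-10). These overlaps were taken from whole gene spans, and whether exons of a pair overlap was not examined. Reads from any stretch that a pair shares may have been counted for either gene. Among the GENCODE transcripts, no member shared an exact stretch longer than 45 bases with any of 18 other Sox genes, which is shorter than the read length of 101 bases that the table's values point to. The longest was between Sox1 and Sox3. Stretches with mismatches, and stretches shared with genes other than Sox genes, were not searched.

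The other 14 Sox genes (Sry among them) moved in both directions. Of 11 that passed the low-count filter, 4 were higher in neurons, 6 were lower and Sox30 did not pass (log2 change -0.74 ± 0.45), where 35.8% of all genes tested were higher and 36.9% lower. Sry, Sox14 and Sox15 were not tested. The SoxC genes Sox11 and Sox12 were higher in neurons, with log2 changes of 1.37 ± 0.08 and 0.75 ± 0.09. Sox4 had a log2 change of 0.22 ± 0.06 (adjusted p = 0.00209), which was at 0.02 with library size as the only scaling and no longer passed there (adjusted p = 0.794). The call of Sox4 was also lost with upper-quartile factors (adjusted p = 0.0567) and without NPC replicate 2 (adjusted p = 0.0836). The SoxD genes split, with Sox5 at 1.96 ± 0.06 and Sox6 and Sox13 at -1.66 ± 0.06 and -3.58 ± 0.23. Sox10, the other SoxE gene and a marker of oligodendrocyte precursors, had 5 and 7 counts in neurons, against 469 and 510 counts in NPCs, a log2 change of -6.10 ± 0.24. It fell further than Sox8 and Sox9 of its own group. The SoxF genes Sox7, Sox17 and Sox18, known from blood vessel endothelium, had log2 changes from -5.06 to -4.54. Of all counts of the 20 Sox genes, the 6 progenitor genes held 0.986% and 1.24% in neurons, against 10.6% and 10.5% in NPCs. The SoxC genes held 92.8% and 90.9% in neurons, against 81.3% in each NPC library.

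**Figure D3:**
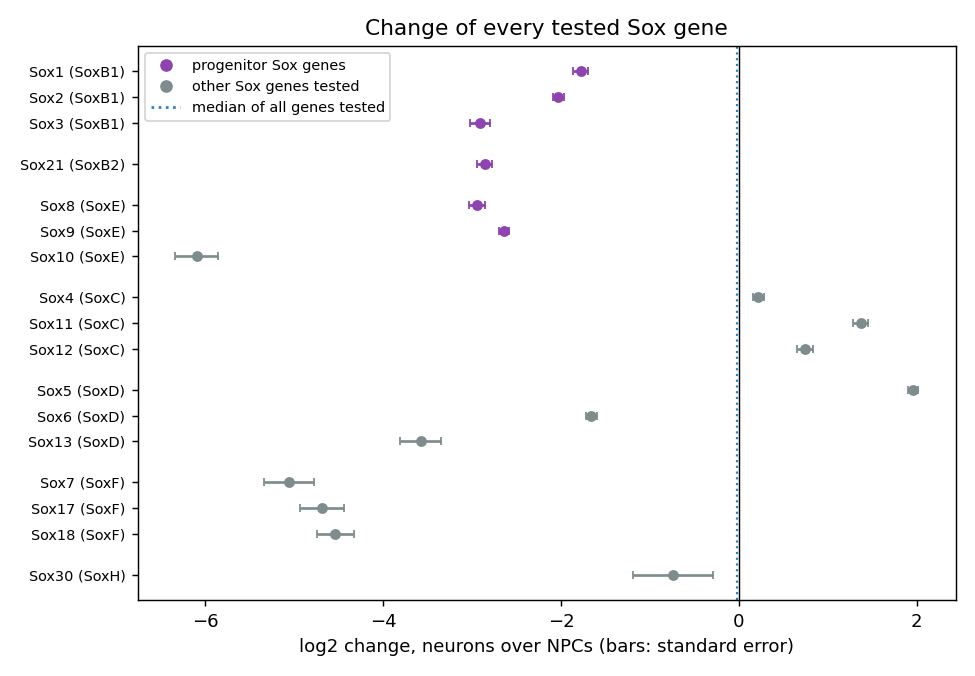
Log2 change (neurons over NPCs) with its standard error for the 17 Sox genes tested, by family group, with the 6 progenitor genes in purple and the median of all genes tested (-0.02) as a dotted line. The 6 progenitor genes lie between -2.94 and -1.78, less negative than Sox10 at -6.10 and the SoxF genes at -5.06 to -4.54.

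Known partners of Sox proteins went both ways. Of 19 partner factors and cofactors, 11 were lower in neurons, 7 were higher and Pou3f3 did not pass (log2 change -0.08 ± 0.05), where 36.9% and 35.8% of all genes tested were lower and higher. The median log2 change of the list was -0.69. With library size as the only scaling the counts became 12 lower and 5 higher. Pax6, a homeodomain partner of Sox2 in the chick eye, fell with a log2 change of -2.31 ± 0.06, and the beta-catenin gene Ctnnb1 with one of -0.55 ± 0.05. The corepressor gene Tle4 rose with a log2 change of 1.47 ± 0.06. Nfib, of the nuclear factor I family that works with Sox9 in gliogenesis, rose with one of 1.18 ± 0.06.

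Genes described as under Sox2 control in neural progenitors were mostly lower in neurons. Of 17 listed, 16 were tested, 14 were lower and 2, Mycn and Lin28b, were higher, where 36.9% of all genes tested were lower and 35.8% higher. The median log2 change of the list was -2.19. Hes5, a Notch effector that blocks neuronal differentiation, had 18.1 and 15.5 CPM in neurons, against 137 and 128 CPM in NPCs (log2 change -2.98 ± 0.08). The intermediate filament gene Vim had a log2 change of -2.51 ± 0.07. Mycn, a growth-promoting transcription factor gene, had 274 and 268 CPM in neurons, against 171 and 172 CPM in NPCs (log2 change 0.66 ± 0.05). Sox2ot is a member of this list. Nes, another member, is the gene after which the green reporter that both gates required is named. Nes was at 34.7% of its NPC level in neurons.

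Genes of Sox9 and the start of gliogenesis were also mostly lower. All 16 listed were tested, 14 were lower, Slc1a2 did not pass and Nfia was higher, beside the same shares of 36.9% lower and 35.8% higher over all genes tested. The median log2 change of the list was -2.14. Its count of lower genes became 13 with DESeq2 size factors, and 15 with upper-quartile factors or with library size only. Aldoc, an aldolase gene of astrocytes, had 49.9 and 47.5 CPM in neurons, against 283 and 279 CPM in NPCs (log2 change -2.53 ± 0.06). The glutamate transporter gene Slc1a3, expressed by radial glia, had a log2 change of -2.02 ± 0.06. Nfia, which Sox9 induces and then pairs with in the spinal cord, had 352 and 369 CPM in neurons, against 267 and 272 CPM in NPCs, and so moved opposite to Sox9 (log2 change 0.42 ± 0.05). Nfia stands in 2 of these 3 lists, as does Gli3, and the lists were chosen with earlier results of these data known.

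The genes whose pattern over the 4 libraries was most like that of a member were found by Euclidean distance between centred log2 levels, among genes that averaged 10 CPM or more. With 4 libraries in 2 groups this measure mostly follows the size of the change. Nearest to Sox2 were the mitotic kinesin gene Kif18b (distance 0.021), the chromatin protein gene Hmgb2 (0.0326) and the replication licensing gene Cdt1 (0.0338). Nearest to Sox9 were the laminin gene Lamb2 (0.0289), the transcription factor gene Rfx4 (0.0697) and Cyr61 (0.074). For Sox8 they were Zfp36l1 (0.084), the collagen gene Col2a1 (0.0844) and the small GTPase gene Rhoc (0.0891). For Sox1 they were Emid1 (0.0782), Akna (0.0789) and Acads (0.0925). Sox3 and Sox21 had the genes Slc9a3r1 and Akap2 in common as their nearest 2, at distances of 0.0624 and 0.0721 for Sox3 and 0.084 and 0.0686 for Sox21. Sox21 came next for Sox3 (0.102), while for Sox21 the next was the adhesion gene Vcam1 (0.0841) and then Sox3.

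Markers of several other cell types were lower in neurons, as the 6 genes were. The counts of markers stand beside 36.9% of all genes tested called lower in neurons and 35.8% called higher. All 6 oligodendrocyte precursor markers were lower in neurons, and their summed level was 2.97 and 3.86 CPM in neurons, against 181 and 186 CPM in NPCs. None of the precursor, endothelial and pericyte markers was at 0 in both libraries of a group. Pdgfra, Olig1 and Olig2 were at 1.25, 0.564 and 0.545 CPM in neurons, against 76.1, 43.9 and 25.3 CPM in NPCs. All 8 endothelial markers were lower, at a summed 7.92 CPM in each neuron library, against 232 and 239 CPM in NPCs, as were all 6 pericyte markers, at 7.74 and 7.01 CPM in neurons, against 207 and 211 CPM in NPCs. Oligodendrocyte precursors also express Sox8, Sox9 and Sox10, and the part of these cells in the change of Sox8 and Sox9 was not tested. Those markers kept between 1.29% and 3.61% of their NPC level in neurons, while the 6 progenitor Sox genes kept between 13.1% and 29.1%. Radial glia markers were lower for 11 of 12 genes, with summed levels of 712 and 729 CPM in neurons, against 3496 and 3487 CPM in NPCs. Their share of the NPC level had a median of 20.0%, against 14.8% for the 6 Sox genes. Nes, Fabp7, Hes1, Hes5, Notch1, Prom1 and Vim of this list also stand among the genes under Sox2 control. Pax6 also stands among the partners, and Slc1a3 among the genes of Sox9 and gliogenesis. For these genes the falls of the lists are the same observation. Intermediate progenitor markers were lower for 8 of 9 genes, with a median share of 23.1%. The remaining gene, Penk, was called higher, at 1.72 and 2.62 CPM in neurons, against 1.29 and 1.31 CPM in NPCs (log2 change 0.74 ± 0.24). Penk was not called higher with library size as the only scaling. All 6 erythroid markers were lower, at a summed 258 and 250 CPM in neurons, against 1929 and 1545 CPM in NPCs. Their share of the NPC level ran from 13.9% to 37.9% (median 21.8%), and Hbb-b1, a globin gene, was at 16.6%. Hba-a1 and Hba-a2 had the same level in every library, so these near-identical copies count as 1 measurement. The median and the summed levels include both copies, which stood at 13.9%, the lowest share of the list. All 7 microglia markers were lower, at a summed 18.4 and 18 CPM in neurons, against 39.6 and 39.1 CPM in NPCs. Interneuron lineage markers went both ways, with 2 of 8 higher (Gad1 and Gad2), 4 lower and 2 not passing. Their summed level was 171 and 185 CPM in neurons, against 186 and 182 CPM in NPCs. The part of these cells in the change of the 6 Sox genes was not tested. Of 10 neuron markers, 9 were higher in neurons and Rbfox3 did not pass. They include Dcx, the gene after which the red reporter that separates the gates is named. Summed levels of the list were 11139 and 11261 CPM in neurons, against 2948 and 2980 CPM in NPCs. The NPC libraries thus held neuronal transcripts, and the neuron libraries held transcripts of radial glia genes.

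**Figure D4:**
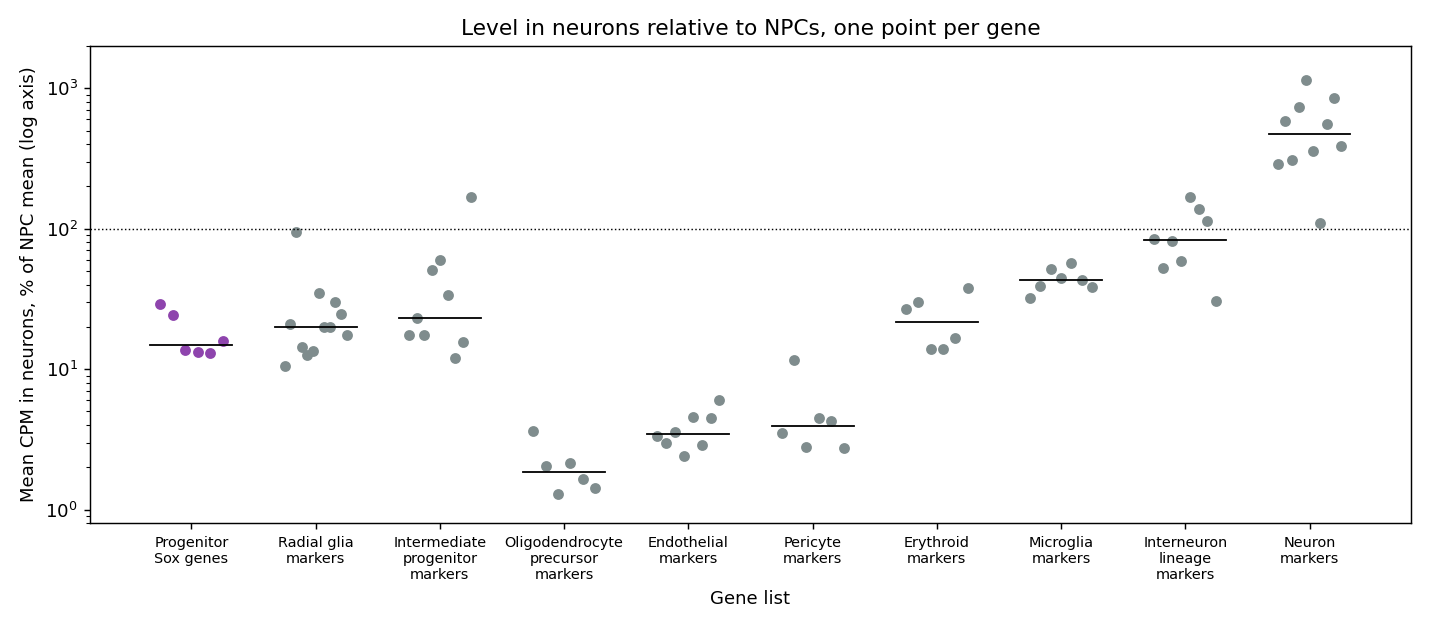
Mean CPM in neurons as a percentage of the NPC mean (log axis), with 1 point per gene, a line at the median of each list and a dotted line at equal levels. The progenitor Sox genes (median 14.8%) lie in the range of the radial glia (20.0%), intermediate progenitor (23.1%) and erythroid markers (21.8%). They lie above the oligodendrocyte precursor (highest 3.61%) and endothelial markers (highest 5.99%). The erythroid median counts Hba-a1 and Hba-a2 separately.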

How the data were processed

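RNA-seq gene counts of 4 libraries (2 of neurons, 2 of NPCs) were analysed, grouped by their titles. The authors deposited 1 table of estimated counts per gene, not scaled between libraries. Below 10000, each of the 88416 values was a whole multiple of 1/101 (tolerance 0.01 base), as bases covered divided by a read length of 101 would give. The submitters' processing notes list TopHat 1.2.0, SAMtools 0.1.18, CASAVA 1.9 and the build mm9 without roles. How genes were counted (tool, annotation, strand, reads that align to several places) is not given in the sources used here, and the table holds no coordinates. Library totals were 52611828 and 55329294 counts in neurons and 53533953 and 55615142 in NPCs. Duplicates differed by more than sampling noise (mean chi-square per gene 14.1 in neurons and 4.56 in NPCs, over genes with a summed count of at least 20) and were kept apart.

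Estimated counts were rounded to whole numbers, filtered with filterByExpr (15292 genes left), scaled with TMM factors of 0.928 and 0.933 in neurons and 1.08 and 1.07 in NPCs, and compared by the unpaired two-sided quasi-likelihood test of edgeR 4.0.16 (R 4.3.3), at a Benjamini-Hochberg adjusted p of 0.05. Standard errors were derived from the log2 change and the root of its F statistic. The common biological coefficient of variation was 4.89%. Alternatives were other scaling factors, other filters, DESeq2 1.42.0, voom in limma 3.58.1, a test against a 1.5-fold change, leaving out each library and a replicate block. On simulated counts for the comparison of neurons with NPCs (15145 genes), the test recovered 27 of 50 genes moved 1.25-fold. It recovered 40 of 50 moved 1.5-fold, 50 of 50 moved 2-fold and 48 of 50 moved 4-fold, with 7 false calls among 172. The simulation moved few genes, up or down at random, and gave all genes the same spread. It therefore does not measure the share of false calls in the data, where 72.6% of genes were called. Genes named were the 6 members, all other Sox genes, for each pathway list the called gene with the smallest p and the one with the highest mean level in each direction, and the 3 nearest genes of each member (log2 of CPM plus 0.5). Pou3f3, Lin28b, Slc1a2, Rbfox3, 3 overlapping noncoding genes, Nes, Dcx and the markers of other cells given by name were named outside that rule, after their values were seen. The members and lists were chosen with earlier results of these data known. Map2 was matched under an older symbol. Promoter sequences are from RefSeq (GRCm38.p6), matched by symbol.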

Additional observations from a re-analysis of the deposited data

How the results depend on the processing

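All 6 progenitor Sox genes were called as lower in neurons under all 13 alternatives, so that all 78 values kept their direction and their call. Their log2 changes ranged from -1.99 to -1.66 for Sox1, -2.24 to -2.01 for Sox2, -3.12 to -2.72 for Sox3, -3.14 to -2.88 for Sox8, -2.85 to -2.59 for Sox9 and -3.07 to -2.71 for Sox21. Leaving out a library leaves its group with 1, which is then assumed to vary like the other group. The counts over all genes moved by over 1.5 times in the test against a 1.5-fold change, where 5387 genes passed, 2268 higher and 3119 lower in neurons, against 11108, 5467 and 5641. With library size as the only scaling, 3840 genes were called higher and 7610 lower in neurons, and the median log2 change of all genes was -0.23 in place of -0.02. With the replicate block, 11206 genes were called and no call of a Sox gene changed. The deviations of same-numbered libraries had a correlation of 0.05 over 10800 genes, so the numbers were not taken to pair the libraries. Of 142 values of the other Sox genes, 138 kept their call, and the other 4 are all of Sox4, which also did not pass the test against a 1.5-fold change. The calls of Ctnnb1, Mycn and Nfia were lost in 1 alternative each, the test against a 1.5-fold change, which by construction asks for a larger change (adjusted p of 0.935, 0.0748 and 1). Depth limits the lowest genes, with a counting SD of 7.54% for the lowest Sox3 count, 6.89% for that of Sox8 and 44.7% for those of Sox7 and Sox10. The cause of the changes between settings was not tested.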
